A study of Mus musculus with 4 samples.

Results

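A list of 9 interferon-stimulated genes was examined, and 8 of the 9 were measured among 22180 genes: Isg15, Ifit1, Ifit2, Ifit3, Irf7, Oasl2, Usp18 and Bst2. Ifi44 is not named by any probe set that carries a single gene symbol, and was not analysed here. Each measured member had 1 probe set, a set of oligonucleotides whose signals are summarized into a single log2 level. The list was given by gene name and sets no threshold on measured values, though it was drawn up with earlier results of these data known.

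Interferons are secreted cytokines that cells release on sensing viral or bacterial nucleic acids. Type I interferons (alpha and beta) and type III interferons (lambda) bind different receptors but both switch on a shared set of antiviral genes, through a DNA element called the interferon-stimulated response element. In the gut, lambda interferons are known to act mainly on epithelial cells, whereas lymphocytes respond mainly to type I interferons and to interferon gamma.

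The study placed RNA of T cells from the mouse gut on 4 Affymetrix arrays, 1 per group, all from C57Bl/6 mice of 8 to 10 weeks. The recolonized colon IEL group held intraepithelial lymphocytes (IEL, lymphocytes that sit between epithelial cells) of the colon from mice that drank ampicillin, neomycin, metronidazole and vancomycin for 7 days and were then exposed for 7 days to the microbiota of untreated littermates, by shared housing in one place of the design text and by soiled bedding in another. The colon IEL group came from the colon epithelium of unmanipulated mice, the small intestinal IEL group from the small intestinal epithelium of unmanipulated mice, and the LP group from the colon lamina propria, the tissue beneath the epithelium. All groups were enriched for T cells by magnetic negative selection with an added antibody against the epithelial protein EpCAM, and cells of 10 mice (5 male and 5 female) were pooled, which the design text gives in one place as a total and in another as the number for each sample. A single array stands for each group. No difference below has a replicate check, no test was possible, and no value has an error.

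Marker genes were set against the labels before the members were read. T cell markers had median levels of 6.28, 5.57 and 5.42 on the recolonized colon IEL, colon IEL and small intestinal IEL arrays, and 2.58 on the array labelled LP. Epithelial markers had median levels of 5.49, 4.40 and 8.06 on the same IEL arrays and 9.22 on the array labelled LP, so the content of that array went against its label. It is called the array labelled LP throughout. On the small intestinal IEL array the epithelial median was also above the T cell median. In such bulk samples, fewer cells of a type and less RNA per cell cannot be told apart.

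The DNA in front of the members was examined for the core letters of the interferon-stimulated response element, since these genes are known as a group for this element. In the RefSeq promoter table of build GRCm38.p6, 7 of the 8 measured members had at least 1 window. The 250 bases upstream of the listed start were searched on both strands for GAAA followed by any 2 bases and a further GAAA, with overlapping matches counted. Of the 7 members, 4 held at least 1 match: Isg15, Ifit1, Ifit3 and Bst2. Over all genes of the table the share was 3.46% (936 of 27025). Ifit2, Irf7 and Oasl2 had no such letters in these windows. The stretches with matches are shown because they are what 4 members share beyond their names, with 20 bases on either side, 5′ to 3′ on the strand of the gene and with the matched letters in capitals. The Isg15 stretch (chr4:156200855-156200916, minus strand) held 3 overlapping matches between 78 and 57 bases upstream of the start. The Ifit1 stretch (chr19:34640765-34640833, plus strand) held 2 separate matches, as did the Ifit3 stretch (chr19:34583353-34583436, plus strand). The Bst2 stretch (chr8:71537567-71537622, minus strand) held 2 overlapping matches.
Isg15: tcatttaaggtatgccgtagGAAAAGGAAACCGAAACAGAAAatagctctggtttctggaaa
Ifit1: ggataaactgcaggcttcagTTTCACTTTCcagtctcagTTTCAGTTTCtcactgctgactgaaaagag
Ifit3: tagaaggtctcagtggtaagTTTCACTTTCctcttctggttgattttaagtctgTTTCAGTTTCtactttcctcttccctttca
Bst2: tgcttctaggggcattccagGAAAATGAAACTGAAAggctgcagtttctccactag

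A match is a description of the letters and not of binding. The 4 genes with a match to the response element did not share a profile over the arrays: Isg15 peaked on the colon IEL array, Ifit1 on the small intestinal IEL array, and Ifit3 with Bst2 on the recolonized array. Ifit3 and Bst2 stood only 0.20 and 0.28 above the next array.

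The members did not move as a block. Isg15 was high on the colon IEL array only. Ifit1, Oasl2 and Usp18 were highest on the small intestinal IEL array, while Ifit2, Ifit3 and Bst2 peaked on the recolonized array and Irf7 on the LP-labelled one. The gap to the next array was 1.85 for Isg15, 1.09 for Ifit1, 1.10 for Oasl2 and 0.56 for Usp18. It was only 0.21, 0.20, 0.28 and 0.25 for Ifit2, Ifit3, Bst2 and Irf7. With the arrays rescaled by quantile normalization, Irf7 was highest on the colon IEL array instead, while the array with the highest level was the same for the other 7 members there and for all 8 under median centring.

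Isg15 encodes a ubiquitin-like protein that is attached to other proteins after interferon and can also be secreted. Its log2 level was 2.10 on the recolonized colon IEL array, 4.66 on the colon IEL array, 2.82 on that of small intestinal IEL and 2.46 on the array labelled LP. The colon IEL array stood 1.85 above the next highest, whereas the other 3 arrays lay within 0.72 of each other. On the recolonized array Isg15 was below the median gene level of that array, which was 2.39.

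Irf7, the transcription factor that amplifies type I interferon production, was at 4.97 on the recolonized colon IEL array, 4.75 on the colon IEL array, 5.40 on that of small intestinal IEL and 5.65 on the array labelled LP. Its range over the arrays was 0.89, under 2-fold. It lay above the median gene level on all 4 arrays.

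The Ifit genes encode cytosolic proteins with tetratricopeptide repeats that bind viral RNA or other Ifit proteins. Ifit1, which recognizes RNA with an unmethylated cap, was at 3.11, 3.30, 4.52 and 3.42 on the recolonized colon IEL, colon IEL, small intestinal IEL and LP-labelled arrays. Ifit2 was at 2.45, 2.20, 2.24 and 2.003 in the same order, close to the median gene level of each array. Ifit3, a partner of Ifit1 and Ifit2, was at 3.22, 3.02, 2.64 and 2.45. Ifit1 was set apart by the small intestinal IEL array, where it was 1.09 above the next array, while the ranges of Ifit2 and Ifit3 over the arrays were 0.45 and 0.77. Ifit3b, a close copy of Ifit3 whose transcripts may share probes with it, was at 2.42, 1.34, 1.25 and 1.54, so both copies were highest on the recolonized array.

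Oasl2, a 2′-5′-oligoadenylate synthetase-like protein, was at 3.45 on the recolonized colon IEL array, 3.79 on the colon IEL array, 4.89 on that of small intestinal IEL and 3.71 on the array labelled LP. Its profile was the nearest to that of Ifit1 among all pairs of members. Usp18, the protease that removes Isg15 from proteins and restrains the type I receptor, was at 2.80, 2.93, 3.49 and 2.61 in the same order. Bst2, the membrane protein tetherin that holds budding virions at the cell surface, was at 2.46, 2.03, 1.91 and 2.18, and was above the median gene level on the recolonized array only.

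**Figure D1:**
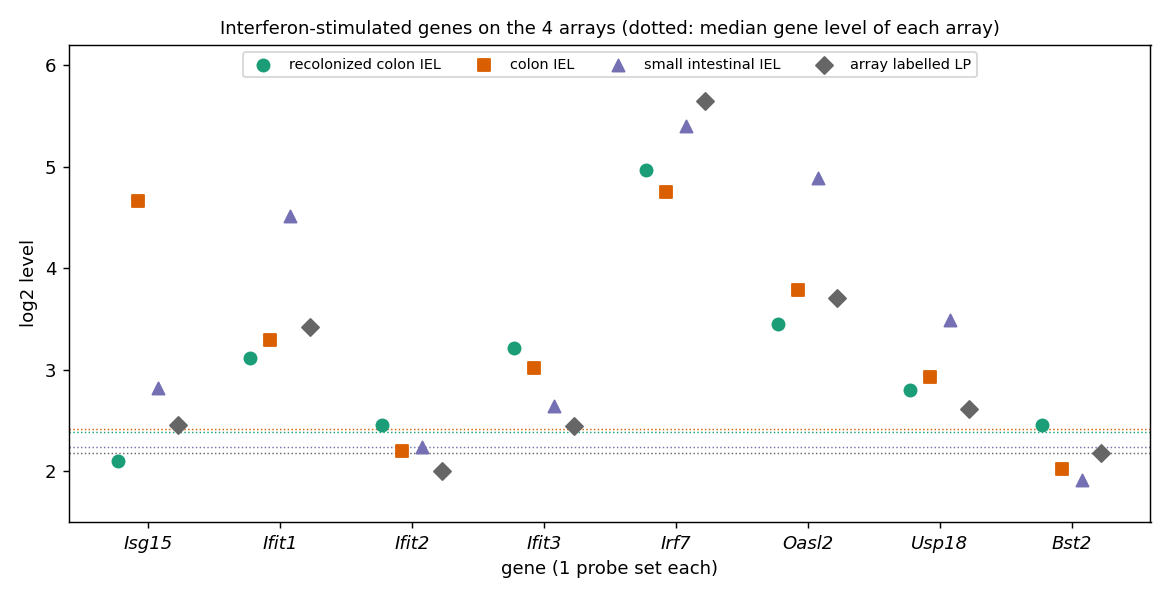
Log2 level (vertical axis) of each of the 8 measured interferon-stimulated genes (horizontal axis) on the 4 arrays, 1 point per array, with dotted lines at the median gene level of each array. Isg15 stands out on the colon IEL array at 4.66, and Ifit1 and Oasl2 on the small intestinal IEL array at 4.52 and 4.89.

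Differences between arrays were counted at 2-fold or more (a log2 difference of at least 1), among genes that reached, on whichever of both arrays showed them brighter, the 50th percentile of gene levels. The first comparison, recolonized against unmanipulated colon IEL, asks how colon IEL differ after antibiotics and the return of bacteria. With no group given antibiotics but not recolonized, the effects of these cannot be told apart. Of the 8 members above this floor, Isg15 was lower and the other 7 were within 2-fold, so that 1 of 8 passed 2-fold beside 9.1% of all 12443 genes above the floor (3.06% lower and 6.04% higher). Isg15 was at 2.10 in recolonized colon IEL and 4.66 in colon IEL, a difference of −2.56 or 5.90-fold. Of the genes above the floor, 33 had a more negative difference. The other 7 members had differences between −0.34 for Oasl2 and 0.43 for Bst2. The median difference of the 8 members was 0.036, beside 0.13 over all genes above the floor.

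The second comparison set colon IEL against small intestinal IEL. The epithelial content of these arrays differed too, with 11 of 12 epithelial markers lower in colon IEL and a median difference of −2.12. The part of epithelial RNA in the differences below was not tested. Isg15 was higher by 1.85 in colon IEL, at 4.66 against 2.82 in small intestinal IEL. Ifit1 was lower by a log2 difference of −1.22, at 3.30 in colon IEL against 4.52 in small intestinal IEL, and Oasl2 by −1.10, at 3.79 against 4.89. The other 4 members above the floor were within 2-fold, and Bst2 was below it. These counts of 1 higher and 2 lower among 7 stand beside 5.98% higher and 24.4% lower, 30.4% in either direction, among all 12551 genes above the floor, so the share of lower members was close to that of all genes. Ifit1 and Oasl2 were within 2-fold after each rescaling, with differences of −0.61 and −0.23 under quantile normalization, −0.98 and −0.86 under median centring, and −0.60 and −0.31 after the lowess correction.

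The third comparison set colon IEL against the array labelled LP. Isg15 was higher by 2.20 in colon IEL, at 4.66 against 2.46 on the array labelled LP, and 1.87% of all genes above the floor had a higher difference. The other 5 members above the floor were within 2-fold, and Ifit2 and Bst2 were below it. Among all 12788 genes above the floor, 10.5% were higher and 34.7% lower, 45.2% in either direction, with a median difference of −0.44, while the 6 members had a median of 0.20. Irf7 had the most negative difference of the members, at 4.75 in colon IEL against 5.65 on the array labelled LP, a difference of −0.89, which turned to 0.61 when quantile normalized and to 0.52 when lowess corrected.

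These comparisons share the colon IEL array. In a further comparison without it, recolonized colon IEL against small intestinal IEL, Isg15 was at 2.10 in recolonized colon IEL against 2.82 in small intestinal IEL, a difference of −0.72. Ifit1 was lower by −1.40, at 3.11 against 4.52, and Oasl2 by −1.44, at 3.45 against 4.89. The other 6 members, Isg15 among them, were within 2-fold, and 17.9% of all 12379 genes above the floor were lower and 4.76% higher, 22.7% in either direction. Ifit1 had −0.996 and Oasl2 −0.87 under quantile normalization, which put both within 2-fold, and Oasl2 had −0.97 after the lowess correction. With recolonized colon IEL set against the array labelled LP, 0 of the 8 members reached 2-fold, beside 39.7% of all 12589 genes above the floor. Isg15 had a difference of −0.36 there. The higher level of Isg15 in the colon was therefore seen on the colon IEL array of unmanipulated mice and not on the recolonized one.

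The balance of higher and lower calls over all genes depended on the scaling. Of the genes past 2-fold, 66.3% were higher in recolonized than in unmanipulated colon IEL as deposited, against 48.8%, 59.8% and 46.6% under quantile normalization, median centring and the lowess correction. For colon against small intestinal IEL the share higher was 19.7% as deposited and 49.6%, 37.1% and 39.7% under the rescalings. It was 23.2% as deposited and 48.9%, 44.8% and 44.2% for colon IEL against the array labelled LP, and 21.0% and 49.2%, 37.2% and 37.7% for recolonized colon IEL against small intestinal IEL.

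**Figure D2:**
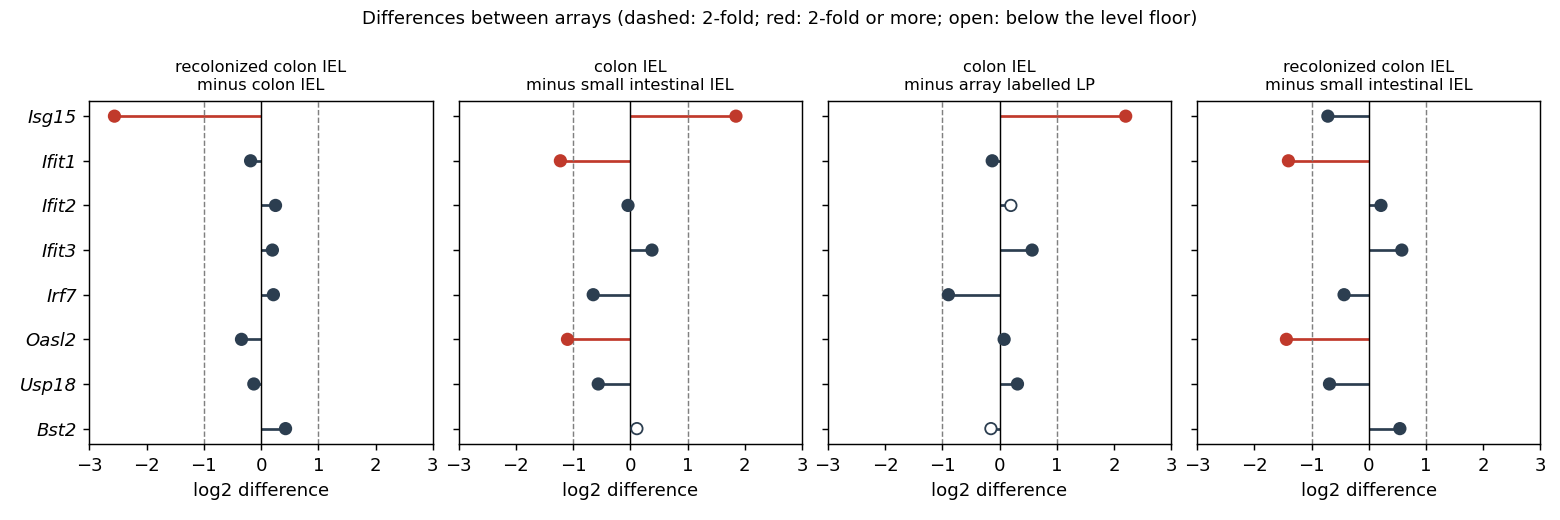
Log2 difference (horizontal axis, first-named array minus second) of each measured member (vertical axis) in the 4 comparisons, 1 point per gene, red at 2-fold or more and open below the level floor. Isg15 has −2.56, 1.85 and 2.20 in the 3 comparisons that use the colon IEL array and −0.72 in the one that does not.

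Isg15 is attached to proteins by a chain of enzymes, most of which are themselves induced by interferon, and these were listed among the signal transducers and regulators. The conjugating enzyme Ube2l6 was at 3.88 on the recolonized colon IEL array, 8.27 on the colon IEL array, 4.46 on that of small intestinal IEL and 2.92 on the array labelled LP. It followed Isg15 in being highest on the colon IEL array, with differences of −4.39 for recolonized against unmanipulated colon IEL, 3.82 when colon was set against small intestinal IEL, and 5.35 against the array labelled LP. The activating enzyme Uba7 was at 4.12, 4.21, 6.03 and 4.83 in the order of the arrays above. The ligase Herc6 was at 3.38, 4.23, 5.23 and 3.53, and the ligase Trim25 at 4.48, 3.49, 5.31 and 6.03. Uba7, Herc6 and the deconjugating protease Usp18 were thus highest on the small intestinal IEL array and Trim25 on the array labelled LP, while Ube2l6 peaked on the colon IEL array as Isg15 did. Quantile normalization put Herc6 highest on the colon IEL array too, and moved none of the other 4.

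Markers of red cells were high on that same array. Of 18 listed red cell markers, 10 were measured, and 8 of these 10 were highest on the colon IEL array. The log2 of their summed level was 6.57 on the recolonized colon IEL array, 11.42 on the colon IEL array, 7.16 on that of small intestinal IEL and 7.05 on the array labelled LP. The haem synthesis enzyme Fech was at 4.52, 9.56, 5.08 and 5.60 in that order, and Bpgm, the enzyme that makes 2,3-bisphosphoglycerate in red cells, at 3.08, 7.64, 3.86 and 4.04. The red cell membrane genes Rhag and Rhd were at 1.70 and 2.15 on the colon IEL array, both below its median gene level of 2.41. The part of red cell RNA in the levels of Isg15 and Ube2l6 was not tested.

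**Figure D3:**
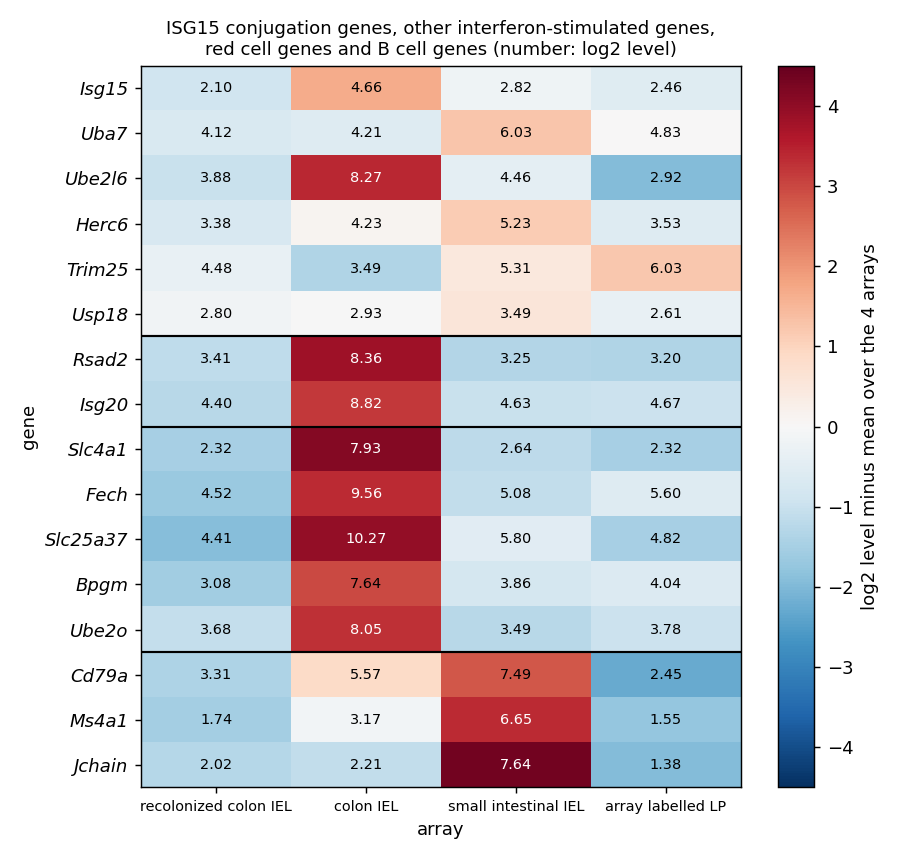
Log2 levels (numbers) on the 4 arrays (columns) of genes (rows) of Isg15 conjugation and removal, of 2 other interferon-stimulated genes, of red cells and of B cells, from top to bottom; colour gives the level minus the mean of the gene over the arrays. Isg15, Ube2l6, Rsad2, Isg20 and the 5 red cell genes shown are highest on the colon IEL array, and Uba7, Herc6 and Usp18 on the small intestinal IEL array, except that Herc6 moves to the colon IEL array under quantile normalization.

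The wider set of 55 other interferon-stimulated genes, of which 50 were measured, was read in the same comparisons. For recolonized against unmanipulated colon IEL, 2 of the 38 genes above the floor were higher, 2 were lower and 34 were within 2-fold, beside 6.04% higher and 3.06% lower over all genes, and the median difference was 0.20 beside 0.13. The lower ones were Rsad2, the antiviral enzyme viperin, with −4.95, and the exonuclease Isg20 with −4.42. The higher ones were Epsti1, at 6.51 in recolonized colon IEL against 4.08 in colon IEL, and Ifit3b with 1.08. The genes that encode the classical antiviral proteins Mx1 and Oas2 were at 1.73 and 1.96 in recolonized colon IEL against 1.60 and 2.15 in colon IEL, all below the median gene level of their arrays. Rsad2, Isg20, Ube2l6 and Isg15 were the genes of the interferon-stimulated and signalling lists that were at least 2-fold lower on the recolonized array with the values as deposited. Of the 8 red cell markers above the floor, 7 were also lower on that array, and the median difference of the 8 was −4.46. The part of red cell RNA in the levels of Rsad2, Isg20, Ube2l6 and Isg15 was not tested. Quantile normalization and the lowess correction each gave 4 lower genes among the other interferon-stimulated genes in place of 2, and centring gave 2. The share of all genes that was lower also rose, to 7.03%, 4.02% and 3.55% with these rescalings.

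Between colon and small intestinal IEL, 2 of 40 other interferon-stimulated genes above the floor were higher, Rsad2 and Isg20, and 19 were lower, beside 5.98% higher and 24.4% lower over all genes, with a median difference of −0.95 beside −0.30. The lower genes included Ifih1, the RNA sensor MDA5, at 3.58 in colon IEL against 6.58 in small intestinal IEL, and Parp12 at 3.16 against 6.33. Ifih1 and Parp12 differed by over 4-fold also after each rescaling. On the array labelled LP, which was rich in epithelial markers, Ifih1 was at 6.93 and Parp12 at 6.46. That array held the highest level of 12 of the 50 genes and the lowest of 20. With quantile normalization it held the highest of 7 and the lowest of 26. The part of epithelial RNA in these levels was not tested. Under the rescalings the count of lower genes was 10, 14 and 11 (quantile normalization, median centring and lowess correction), and that of higher genes 5, 2 and 4. Of all genes 13.2%, 19.1% and 13.2% were then lower and 13.1%, 11.3% and 8.68% higher. The small intestinal IEL array held the highest level of 24 of the 50 genes, and of 23 and 21 after quantile normalization and median centring. For recolonized colon IEL against small intestinal IEL, 1 of 42 was higher and 13 were lower, beside 4.76% and 17.9% of all genes, with a median of −0.60 beside −0.20. The rescalings gave 3 higher and 8 lower with quantile normalization, 1 and 10 with centring, and 2 and 9 with lowess. In the same order, 9.8%, 8.32% and 7% of all genes were higher and 10.1%, 14% and 11.6% lower. For colon IEL against the array labelled LP, 4 of 36 were higher and 13 lower, beside 10.5% and 34.7% of all genes. That balance turned round with rescaling, to 9 higher and 5 lower of 37 with quantile normalization and to 9 and 7 of 36 with centring and with lowess. Of all genes 17.8%, 21.3% and 14.6% were then higher and 18.5%, 26.2% and 18.4% lower. The median of the listed genes was −0.46, beside −0.44 over all genes, and turned to 0.20 when quantile normalized and to 0.16 when lowess corrected.

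Markers of other cell types also differed between the arrays, and most of those of B and plasma cells were highest on the small intestinal IEL array. Of 11 listed B and plasma cell markers, 10 were measured and 7 were highest there, with a log2 summed level of 5.88, 7.01, 9.47 and 5.78 on the recolonized colon IEL, colon IEL, small intestinal IEL and LP-labelled arrays. Ms4a1, the B cell protein CD20, was at 1.74, 3.17, 6.65 and 1.55. The log2 summed level of the 13 macrophage and monocyte markers was 7.69, 7.35, 7.79 and 7.43 in that order, and that of the 12 epithelial markers 10.56, 9.19, 11.99 and 13.19. Plasmacytoid dendritic cell markers, of the cells known for making type I interferon, had log2 summed levels of 8.53, 7.12, 7.60 and 10.84. The sum on the array labelled LP came almost wholly from a single marker, Klk1, at 10.81. The median level of the list there was 2.06, and 6 of the 9 measured were lowest there, while 5 were highest on the small intestinal IEL array. Klk1 was also the brightest marker on the recolonized colon IEL, colon IEL and small intestinal IEL arrays, at 8.30, 6.34 and 6.68. The median levels of the list on these arrays were 2.51, 2.63 and 3.10. The summed level was 5.38, 5.72, 4.93 and 6.12 for neutrophil markers, 7.47, 7.07, 6.72 and 5.71 for conventional dendritic cell markers, and 9.67, 9.55, 7.69 and 6.47 for stromal markers. The neutrophil sum on the array labelled LP rested on Ly6g at 5.55, while 7 of the 9 neutrophil markers were lowest there. A single marker, Cd209a, made up most of the conventional dendritic cell sum on every array, at 7.31, 6.89, 5.83 and 5.31 in that order of arrays. The part of these cells in the levels of Ifit1, Oasl2 and the other genes that were high on the small intestinal IEL array was not tested.

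**Figure D4:**
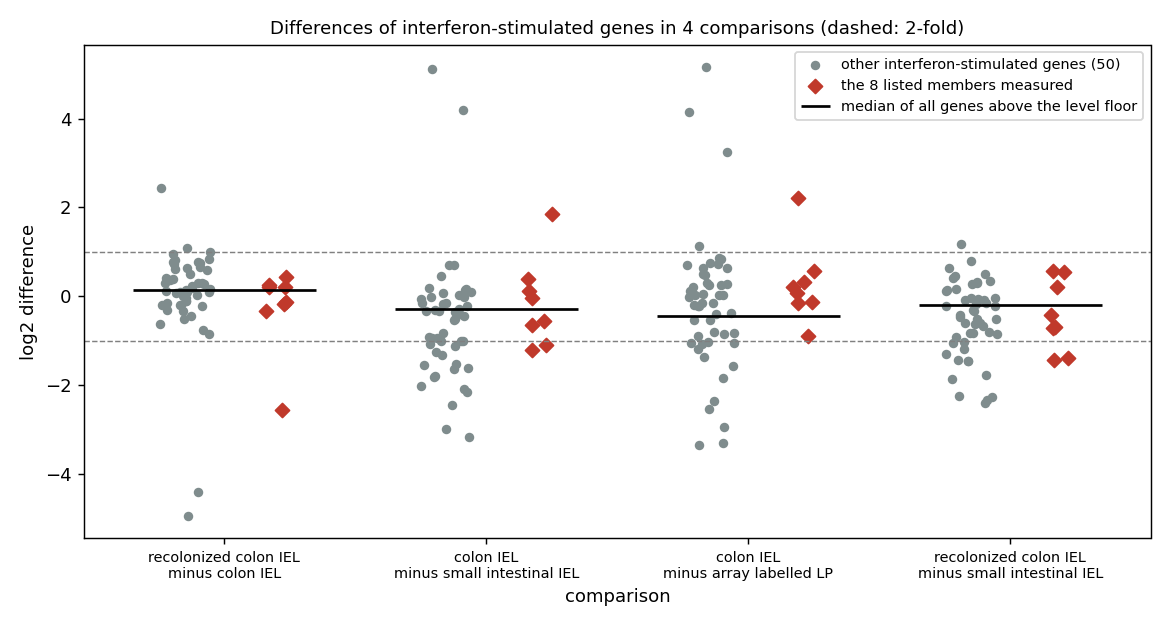
Log2 difference (vertical axis) of 50 other interferon-stimulated genes (grey) and of the 8 measured members (red diamonds) in each of the 4 comparisons (horizontal axis), 1 point per gene, with a black line at the median of all genes above the level floor. Rsad2 and Isg20 lie farthest from the rest where the colon IEL array is used, on the side of Isg15.

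Most of the ligands were below the median gene level. Of 19 measured interferon genes, between 5 and 7 were at or above the median gene level of an array. Ifnb1, the gene of interferon beta, was at 1.70, 1.34, 1.35 and 1.27 on the recolonized colon IEL, colon IEL, small intestinal IEL and LP-labelled arrays, and Ifng, the gene of interferon gamma, at 1.75, 1.47, 1.36 and 1.24, below the median gene level on every array. Ifnl2, an interferon lambda gene with the close copy Ifnl3, was at 6.53, 5.32, 5.05 and 4.91, and was the only ligand above the floor to differ by 2-fold between recolonized and unmanipulated colon IEL, by 1.21. After quantile normalization or the lowess correction none of the ligands did. Of all genes above the floor 9.1% passed 2-fold as deposited, and 13.7% and 7.53% after these rescalings. The ligands next in size of difference were Ifna1 with −0.59, Ifne with −0.54 and Ifna4 with 0.40, all within 2-fold, and the interferon alpha genes are close copies whose probe sets may share signal.

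The receptors were above the floor in every comparison, and all 6 were within 2-fold between recolonized and unmanipulated colon IEL. Ifnar1, a chain of the type I receptor, was at 5.67, 5.39, 5.495 and 5.65 on the recolonized colon IEL, colon IEL, small intestinal IEL and LP-labelled arrays, a nearly flat profile. Its partner chain Ifnar2 was at 5.12, 4.64, 5.08 and 3.32. The lambda receptor chain Ifnlr1 was at 3.12, 2.65, 2.30 and 3.32, and Il10rb, which it shares with other cytokines, at 5.76, 5.01, 6.28 and 6.73. Of the chains of the interferon gamma receptor, Ifngr1 was at 7.75, 7.66, 7.31 and 8.08 and Ifngr2 at 5.20, 4.61, 6.99 and 7.59. In colon IEL, Ifngr2 was at 4.61 against 6.99 in small intestinal IEL, a difference of −2.38, and Il10rb had −1.27. Ifngr2 was past 2-fold with each rescaling, whereas Il10rb had −0.045 with quantile normalization and −0.28 with the lowess correction.

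Among the transducers that link the receptors to the listed genes, Stat2 was at 3.66, 3.44, 5.35 and 3.84 in the same order of arrays, and Irf9 at 3.53, 3.72, 4.57 and 4.11. Both were highest on the small intestinal IEL array, as were Ifit1 and Oasl2, while Isg15 was not. Of the 16 measured transducers and regulators, 1 was higher and 1 lower in recolonized than in unmanipulated colon IEL, beside 6.04% and 3.06% of all genes. The rescalings gave 0 higher and 3 lower with quantile normalization and with lowess, and 0 and 2 with centring. Of all genes 6.71% were then higher and 7.03% lower with quantile normalization, 3.51% and 4.02% with lowess, and 5.28% and 3.55% with centring. As deposited, the higher one was Irf2, a repressor of interferon-stimulated genes, with 1.01, and the lower one Ube2l6. Irf2 was within 2-fold after each rescaling, with 0.56 to 0.96. Irf8, a transcription factor of myeloid and B cells, had −0.99 and Trim25 0.99. Between colon and small intestinal IEL, 1 was higher and 8 were lower, beside 5.98% and 24.4% of all genes. The count of lower genes was 3 with quantile normalization, 6 with centring and 4 with lowess, with 2 higher in each. Of all genes 13.2%, 19.1% and 13.2% were then lower and 13.1%, 11.3% and 8.68% higher. The median of −0.93 over the listed genes was −0.063 when quantile normalized and −0.12 when lowess corrected.

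The nucleic acid sensors and adaptors had a median difference of 0.67 over the 11 genes above the floor for recolonized against unmanipulated colon IEL, with Sting1, the adaptor of cytosolic DNA sensing, higher at 6.08 against 5.07 and 0 genes lower, beside 6.04% higher and 3.06% lower and a median of 0.13 over all genes. With each of the 3 rescalings, 0 of the 11 reached 2-fold, beside 13.7%, 8.83% and 7.53% of all genes under quantile normalization, centring and lowess. Zbp1, a sensor of Z-form nucleic acid, had 0.95, the kinase Tbk1 0.86 and the RNA sensor Ddx58 0.81. Between colon and small intestinal IEL, 0 of 12 were higher and 9 were lower, beside 5.98% and 24.4% of all genes. The median of the 12 was −1.57, beside −0.30 over all genes. The median of the 12 was −0.87 under quantile normalization, and 4 to 8 were lower under the 3 rescalings, beside 13.2% to 19.1% of all genes.

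Of the interferon gamma-induced genes, 18 of 22 were measured. Of the 14 above the floor, 1 was higher in recolonized than in unmanipulated colon IEL, the GTPase Igtp at 4.22 against 3.11, and 0 were lower, beside 6.04% and 3.06% of all genes, with a median of 0.43. Igtp had 1.27, 1.06 and 0.94 under quantile normalization, centring and lowess, within 2-fold under the last. Quantile normalization gave 3 higher and 1 lower, beside 6.71% and 7.03% of all genes. Nlrc5, the activator of MHC class I genes, had 0.90, Irgm2 0.81 and the peptide transporter gene Tap2 0.68. In colon IEL against small intestinal IEL, 0 of 14 were higher and 6 lower, beside 5.98% and 24.4% of all genes. Under the rescalings 3 to 4 were lower, beside 13.2% to 19.1% of all genes. Against the array labelled LP, 5 of 12 were higher in colon IEL and 0 lower, beside 10.5% and 34.7% of all genes, among them the immunoproteasome gene Psmb8 at 6.30 against 4.68.

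Likeness of profiles was measured as the Euclidean distance between log2 levels over the 4 arrays, each gene centred on its own mean. Among the 13646 genes outside every list that reached the median gene level on at least 1 array, the 6 nearest to the median profile of the members were Tmem160, Mknk1, Rrm2b, Baz1a, Tdp1 and Usf1, at distances of 0.016 to 0.054. That median profile, centred in the same way, was nearly flat, with levels between −0.14 on the array labelled LP and 0.21 on the small intestinal IEL array, and it described no single member well. The distance was therefore also taken from single members, a choice made after seeing the values, among 13822 genes. The gene nearest to Ifit1 was Oasl1, a paralog of Oasl2, at 0.045, and Oasl2 itself was among the 6 nearest, at 0.15. The genes nearest to Isg15 were Cd300ld3 at 0.21 and Ccndbp1 at 0.28, with Isca1, an iron-sulfur cluster assembly gene, also among the 6 nearest at 0.39. Ccndbp1 was at 4.65 on the recolonized colon IEL array, 7.60 on the colon IEL array, 5.55 on that of small intestinal IEL and 5.14 on the array labelled LP.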

How the data were processed

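The values, deposited by the authors as log2 levels of 41345 probe sets on 4 arrays, came out of Expression Console (Affymetrix), as the submitters' processing notes record. Its version, summarization, normalization and build: not given in the sources used here. Of these probe sets, 23521 had 1 gene symbol, 1814 several and 16010 none in the platform table used; several-symbol probe sets named no gene. Where a gene had several, the probe set brightest on average was kept. Gene IDs of all 8 measured members matched RefSeq (GRCm38.p6). Differences were computed in Python 3.11.15 (pandas 2.3.3); the steps were tested on simulated data. The number of arrays limits the precision. The arrays were told apart by the sample titles, which are WT_IEL (colon IEL), Recolonized, SI_IEL and LP. The titles WT_IEL and Recolonized do not name the colon.

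Named were all members, the receptors, Stat2 and Irf9, the 4 genes per pathway list with the largest difference between recolonized and unmanipulated colon IEL above the floor, and the 6 nearest profiles; other genes were named after their values were seen. The members and lists were chosen with earlier results of these data known. The 6 pathway and 9 marker lists were fixed with the comparisons; a few genes, such as Ifih1 and Herc6, stand in more than 1 list. Alternatives were other floors (25th and 75th percentile, none), 1.5-fold and 3-fold thresholds, probe set means, quantile normalization, median centring and a lowess correction (statsmodels 0.14.6, span 0.3).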

Additional observations from a re-analysis of the deposited data

How the results depend on the processing

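Isg15 remained at least 2-fold lower in recolonized than in unmanipulated colon IEL, and at least 2-fold higher in colon IEL than in small intestinal IEL and on the array labelled LP, under every floor, threshold, probe set rule and scaling run. Recolonized colon IEL was also substituted for colon IEL, an alternative added after seeing the data. The differences of Isg15 were then −0.72 against small intestinal IEL and −0.36 against the array labelled LP. Against the latter, 0 members passed 2-fold, beside 39.7% of all genes, and the median of the members was −0.037. For colon against small intestinal IEL, 3 members passed 2-fold as reported, beside 30.4% of all genes. With a 3-fold threshold, quantile normalization, centring or lowess 1 member passed, beside 13.8%, 26.3%, 30.4% and 21.9% of all genes. The members' median of −0.56 was −0.30 with the 25th percentile floor or none and −0.87 with the 75th. It was −0.23 under quantile normalization and −0.28 after lowess. For recolonized colon IEL against small intestinal IEL, 2 passed as reported, beside 22.7% of all genes. At 1.5-fold 4 passed and at 3-fold 0, beside 46.3% and 9.13% of all genes. Quantile normalization gave 0 and lowess 1, beside 19.9% and 18.6%. The members' median of −0.56 was −1.40 with the 75th percentile floor, −0.24 under quantile normalization and −0.27 after lowess. For colon IEL against the array labelled LP, 1 passed as reported and 2 at 1.5-fold, beside 45.2% and 67.3% of all genes. The members' median of 0.20 became 0.64 with quantile normalization, 0.58 with centring and 0.50 with lowess. For recolonized against unmanipulated colon IEL, the median of 0.036 was −0.26 with the 75th percentile floor, −0.17 under quantile normalization, −0.0085 after centring and −0.14 after lowess. The cause of these changes was not tested. Quantile normalization moved the median of all genes above the floor by more than 0.1, to 0.013, 0.095, 0.073 and 0.092 for the comparisons in the order of the text, against 0.13, −0.30, −0.44 and −0.20 as deposited. No paired analysis was possible because each group had 1 array and the labels carry no replicate numbers. Levels near the median gene level, such as those of Ifit2 and Bst2, leave little room to see a lower level.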
